A study of Mus musculus with 4 samples.

Results

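Genes of homologous recombination and of the Fanconi anemia pathway, together with the checkpoint kinases that act upstream of p53, were examined in J774M cells. J774M is a mouse line whose labelled cell type is the myeloid-derived suppressor cell, an immature myeloid cell that dampens T cell responses. The members were 35 genes chosen by name, of 26309 genes that the arrays measured under a gene name. A probe set of its own was found for 33 of them. Fanca and Rad54b were measured only by probe sets that the platform annotation also assigns to Zfp276 and Fsbp, so they are described apart and enter no count. The study set cells treated with the neutral ceramidase inhibitor NC06, 10 uM for 24 h, against control cells, with 2 arrays in each group. Both groups were the same line in RPMI medium with serum. The sources used here do not give what the control cells received in place of NC06. Since no label states that replicate samples were grown separately, the p-values cover the spread between these samples alone, and that spread may be technical.

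Homologous recombination repairs broken chromosomes by copying an intact sister chromatid, and it is therefore tied to the S and G2 phases of the cell cycle. The Fanconi pathway removes crosslinks that join the strands of DNA: a core complex of ubiquitin ligase subunits marks FANCD2 and FANCI at a stalled fork, and the nucleases and recombination proteins then take over. ATR and ATM are the kinases that sense stalled forks and strand breaks, and through CHK1 and CHK2 they halt the cell cycle and stabilise p53. Many of these genes are known to be transcribed under E2F factors as cells enter S phase.

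The signal of most members was somewhat lower in NC06 cells. The mean of the NC06 arrays lay below that of the control arrays in 28 of 33 members, or 84.8%, against 49.5% of all named genes. The median difference was -0.16 log2, or 0.896-fold, against 0.002 over all genes and -0.024 over the 13155 genes at or above the median signal. The differences ran from -0.49 for Fancc to 0.077 for Atm. The arrays of the groups did not overlap in 21 members, with NC06 below control in all 21 and above it in 0. Over all genes the background of these counts was 24.4% below and 23.3% above. Brightness was taken as the larger of the 2 group means, and by it all 33 members were brighter than the median gene. Among the 13155 genes at or above that median 35.2% lay below without overlap and 25.6% above. A gene can pass this rule through 1 group alone. For Fancc the larger mean was that of the control arrays, 5.45 log2, while its NC06 mean of 4.95 was close to the median gene. The groups overlapped in the remaining 12 members.

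**Figure D1:**
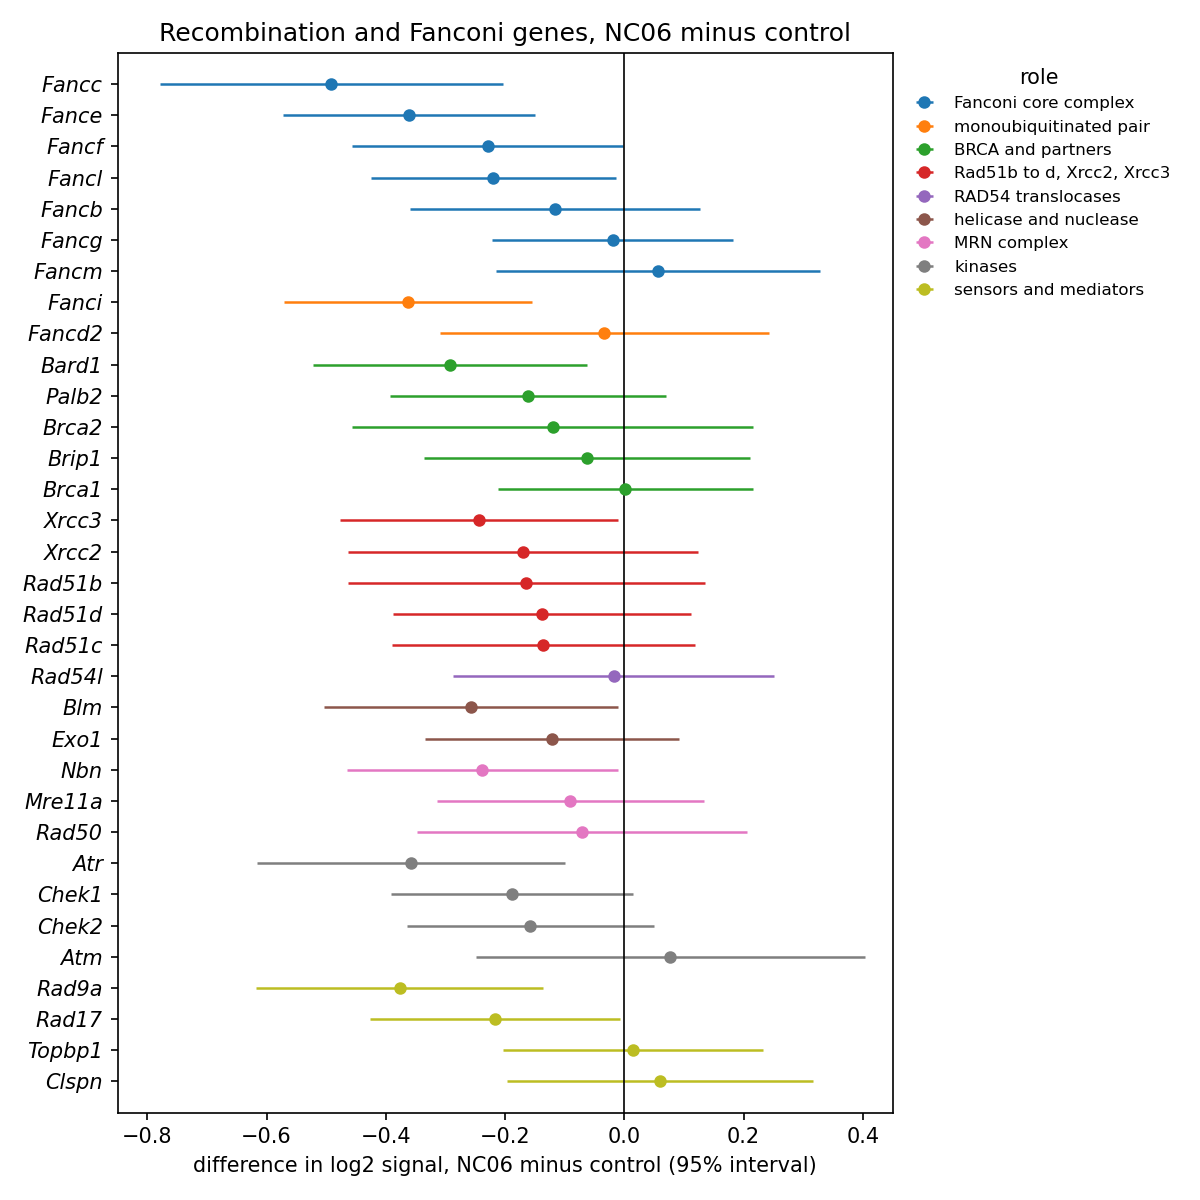
Difference in log2 signal (x axis, NC06 minus control) for each of the 33 members (rows, grouped and coloured by role). Points are differences of means of 2 arrays each, bars are 95% intervals of the limma fit, and 28 points lie left of 0, from -0.49 for Fancc.

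In the limma fit over all 26309 genes 0 members had an adjusted p under 0.05, against a background of 0%, and 0 had an adjusted p under 0.10, against 0.445% of all genes. The adjusted p of the members ran from 0.219 for Fanci to 0.998 for Brca1. At an unadjusted p under 0.05 there were 12 lower and 0 higher members, against 7.53% of all genes lower and 7.79% higher. The standard errors of the members ran from 0.075 to 0.12 log2, and their 95% intervals reached from -0.78 at the lowest to 0.40 at the highest. In the fit that kept only the brighter genes, 14 members were lower at an unadjusted p under 0.05, against 17.3% of those genes. Its adjusted p was under 0.05 for 2 members, Fanci (0.0425) and Fance (0.0443), against a background of 2.99% lower. With a variance prior that follows the signal, limma called 3 members, Fanci (adjusted p 0.0309), Atr (0.0455) and Rad9a (0.0122), against 3.11% lower. Atr was called there by the brightest of its 3 probe sets. The p in the authors' deposited table was under 0.05 for 9 of the 33 members, all lower, against 6.82% of its probe sets. It was so for 0 of them after Benjamini-Hochberg adjustment. The 9 hold Chek1 and Chek2, which are not among the 12 of the main limma fit. They lack Atr, Blm, Fancf, Nbn and Xrcc3, which are.

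The lower signal was more marked on NC06 replicate 1 than on NC06 replicate 2. The mean over the 33 members was 7.88 and 7.96 log2 on the NC06 arrays, against 8.08 on both control arrays. NC06 replicate 1 read below NC06 replicate 2 in 26 of 33 members. The share of all genes that did so was not counted. The upper quartile over all probe sets was also lowest on NC06 replicate 1, at 6.85 log2, against 6.88 on each other array. On all 4 arrays 27 of the 33 members lay above that quartile. Whether the lower reading on NC06 replicate 1 is particular to the members was not tested. Without NC06 replicate 1 the lower means numbered 24 and the median difference was -0.12. Without NC06 replicate 2 all 33 means were lower and the median was -0.19. At an unadjusted p under 0.05 each fit without 1 array called fewer members lower than the 12 of the full fit, and a smaller share of all genes. There were 6 without control replicate 1, against 4.39% of all genes, and 3 without control replicate 2, against 4.69%. There were 2 without NC06 replicate 1, against 4.46%, and 5 without NC06 replicate 2, against 5.4%.

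**Figure D2:**
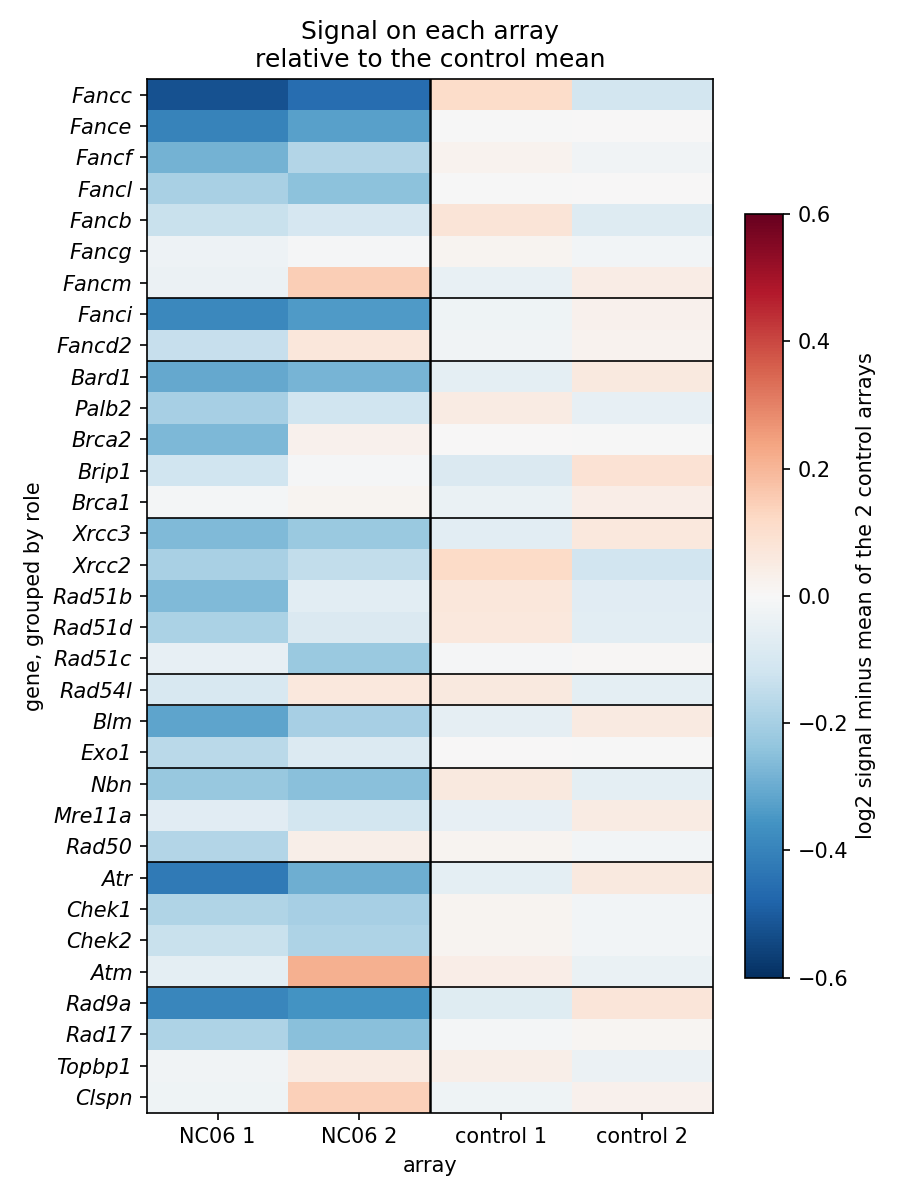
Log2 signal of each member (rows, grouped by role between black lines) on each of the 4 arrays (columns), minus the mean of the 2 control arrays, on a colour scale from -0.6 to 0.6. Blue cells are lower, and the NC06 replicate 1 column is the bluest, with 26 of its 33 values below those of NC06 replicate 2.

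The promoters of 6 members are shown for the elements of cell cycle genes that they hold. They are those of Fancc and Fance, which had lower signals in NC06 cells than in control cells. The rest, of Bard1, Chek2, Clspn and Topbp1, hold an E2F word. Of the 7 measured members with such a word, these have the lowest and the highest differences, so they do not stand for the 7. The windows run from 250 bases before to 50 bases after the start of each gene in RefSeq, assembly GRCm38.p6, and are read in the direction of the gene. They are chr13:63431696-63431995 on the minus strand for Fancc, chr17:28313280-28313579 on the plus strand for Fance, chr1:71102923-71103222 on the minus strand for Bard1, chr5:110839733-110840032 on the plus strand for Chek2, chr4:126556730-126557029 on the plus strand for Clspn and chr9:103305077-103305376 on the plus strand for Topbp1. Capitals mark the E2F words and the CCAAT box, in either orientation.
Fancc: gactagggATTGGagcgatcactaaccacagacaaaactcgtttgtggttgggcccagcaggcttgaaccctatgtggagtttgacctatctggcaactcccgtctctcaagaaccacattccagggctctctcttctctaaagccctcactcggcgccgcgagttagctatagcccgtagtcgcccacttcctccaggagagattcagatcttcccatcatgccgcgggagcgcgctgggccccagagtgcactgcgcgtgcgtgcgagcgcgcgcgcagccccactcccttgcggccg
Fance: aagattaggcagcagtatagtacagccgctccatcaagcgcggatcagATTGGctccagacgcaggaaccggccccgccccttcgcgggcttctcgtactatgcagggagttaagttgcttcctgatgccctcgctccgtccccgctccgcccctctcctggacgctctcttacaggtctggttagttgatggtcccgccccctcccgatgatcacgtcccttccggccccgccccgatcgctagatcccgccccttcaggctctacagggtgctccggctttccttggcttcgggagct
Bard1: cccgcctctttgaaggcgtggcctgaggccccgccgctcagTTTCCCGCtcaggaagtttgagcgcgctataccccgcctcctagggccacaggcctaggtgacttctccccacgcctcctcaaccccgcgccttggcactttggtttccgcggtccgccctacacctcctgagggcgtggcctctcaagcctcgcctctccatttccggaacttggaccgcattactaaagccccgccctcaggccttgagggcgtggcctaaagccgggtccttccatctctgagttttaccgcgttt
Chek2: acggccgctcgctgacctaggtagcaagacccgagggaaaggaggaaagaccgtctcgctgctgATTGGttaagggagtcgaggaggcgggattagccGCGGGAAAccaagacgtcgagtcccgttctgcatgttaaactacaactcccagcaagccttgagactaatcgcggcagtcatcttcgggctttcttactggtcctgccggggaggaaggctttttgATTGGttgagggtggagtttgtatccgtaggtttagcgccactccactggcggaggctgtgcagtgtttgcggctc
Clspn: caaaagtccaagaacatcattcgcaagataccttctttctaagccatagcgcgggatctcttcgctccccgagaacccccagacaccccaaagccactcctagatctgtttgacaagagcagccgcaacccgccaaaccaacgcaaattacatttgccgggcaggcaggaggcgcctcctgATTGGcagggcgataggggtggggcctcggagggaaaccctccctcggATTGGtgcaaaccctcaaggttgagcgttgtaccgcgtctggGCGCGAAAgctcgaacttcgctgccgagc
Topbp1: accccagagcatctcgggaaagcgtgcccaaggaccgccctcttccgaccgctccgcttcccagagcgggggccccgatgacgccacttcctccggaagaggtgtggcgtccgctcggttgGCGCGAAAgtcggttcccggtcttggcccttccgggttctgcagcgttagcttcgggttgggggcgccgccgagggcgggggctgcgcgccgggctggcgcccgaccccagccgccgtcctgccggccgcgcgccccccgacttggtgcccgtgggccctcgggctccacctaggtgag

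The E2F words searched were TTTCCCGC, TTTCGCGC, TTTGCCGC and TTTGGCGC on both strands, and no match shares a base with a CCAAT match in the windows printed. Windows were given for 27 of the 35 members, 30 windows in all. An E2F word stood in 8 of the 30, or 26.7%, against 2.26% of all 32851 windows. The 8 windows belong to 7 genes, Bard1, Fancg, Clspn, Chek2, Brca2, Topbp1 and Rad51c. The word began 209 bases before the start in Bard1, 152 before it in Chek2, 129 before it in Topbp1 and 21 after it in Clspn. CCAAT, the box of the factor NF-Y, stood in 19 of 30 windows, or 63.3%, against 37.4% of all. TTTGAA, the core of the element that the DREAM complex reads in cell cycle genes, stood in 2 of 30, or 6.67%, against 17.9%. The windows of Fanci and Atr hold none of these elements and were not printed. Both genes were at -0.36, Atr by the brightest of its 3 probe sets and at -0.11 by their mean. The 7 genes with an E2F word had a median difference of -0.12 log2, against -0.19 for the 19 measured members whose windows hold none. For CCAAT the median was -0.14 in 16 genes with the box and -0.20 in 10 without. For TTTGAA it was -0.23 in 2 genes with the word and -0.15 in 24 without. The windows of Rad51c, Brca2 and Fancg, genes at -0.14, -0.12 and -0.02, also hold an E2F word and were not printed. Of the 4 printed windows with an E2F word, those of Bard1 and Chek2 belong to genes at -0.29 and -0.16. Those of Clspn and Topbp1 belong to genes at 0.059 and 0.014. Among these 4 genes only Bard1 reached an unadjusted p under 0.05 in the main limma fit. By the authors' deposited p both Bard1 and Chek2 did. Whether the 4 genes differ from each other was not tested.

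In the Fanconi core complex, 6 of 7 measured subunits had a lower mean and 5 did not overlap, with a median difference of -0.22 log2. Over all genes 49.5% had a lower mean, and 24.4% lay below without overlap, or 35.2% among the brighter genes. FANCC, with FANCE and FANCF, forms the arm of the complex that receives the FANCD2 and FANCI pair. Fancc read 4.92 and 4.99 log2 on the NC06 arrays, against 5.55 and 5.34 on the control arrays. The difference of -0.49 (SE 0.11, 0.711-fold) was the greatest in size among the members, and its NC06 values were close to the median gene, 4.97 and 4.93 on those arrays. Fance read 6.49 and 6.57 in NC06 cells, against 6.89 on both control arrays, a difference of -0.36 (SE 0.079, adjusted p 0.223). Fancf read 7.50 and 7.61, against 7.81 and 7.76 in control cells. All 3 genes of this arm were thus lower on both NC06 arrays.

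FANCL is the subunit that transfers ubiquitin, and FANCB holds it in the complex. Fancl read 6.21 and 6.16 log2 in NC06 cells, against 6.40 and 6.41 in control cells, a difference of -0.22 (SE 0.076, adjusted p 0.312). Fancb had a difference of -0.12 without passing any threshold, and its groups lay only 0.026 log2 apart. The scaffold subunit Fancg was at -0.02, which was 0.034 after quantile normalization. Fancm, the translocase that brings the complex to the fork, was at 0.057, with a 95% interval from -0.22 to 0.33, and at -0.034 without NC06 replicate 2. The shared probe set of Fanca and Zfp276 read 8.07 and 8.26 on the NC06 arrays, against 8.36 and 8.26 on the control arrays, a difference of -0.15 that cannot be assigned to either gene.

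The substrates of the core complex parted from each other. FANCI and FANCD2 form the clamp that is ubiquitinated on DNA. Fanci read 7.29 and 7.34 log2 in NC06 cells, against 7.66 and 7.70 in control cells. The difference was -0.36 (SE 0.077, 0.777-fold, adjusted p 0.219), and the gap of 0.32 between the groups exceeded the range of 0.043 within NC06 cells and of 0.048 within control cells. Fancd2 read 9.57 and 9.77 in NC06 cells, against 9.68 and 9.73 in control cells. Its NC06 arrays stood on either side of the control arrays, the difference was -0.034 (95% interval -0.31 to 0.24), and it was 0.069 without NC06 replicate 1. Whether the changes of Fanci and Fancd2 differ from each other was not tested.

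Of BRCA1, BRCA2 and their partners, Bard1 had the smallest p. BARD1 and BRCA1 form a ubiquitin ligase that prepares breaks for recombination. Bard1 read 7.25 and 7.28 log2 in NC06 cells, against 7.50 and 7.62 in control cells, a difference of -0.29 (SE 0.085, adjusted p 0.269). Brca1 read 7.41 and 7.44, against 7.38 and 7.46 in control cells. Its difference was 0.002 with a 95% interval from -0.21 to 0.22, and -0.055 after median centring of the arrays. PALB2 links BRCA1 to BRCA2, and Palb2 was at -0.16 with no overlap of the groups. Brca2, which encodes a recombination mediator, had a difference of -0.12 but spread widely in NC06 cells, at 7.64 and 7.94, against 7.91 in both control samples. The helicase gene Brip1 was at -0.063 with overlapping groups.

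The 5 genes Rad51b, Rad51c, Rad51d, Xrcc2 and Xrcc3 all had a lower mean, and in 4 the groups did not overlap. Their proteins form complexes that act in strand exchange. The share below without overlap was 24.4% of all genes and 35.2% of the brighter genes. Xrcc3, the partner of RAD51C, read 8.80 and 8.84 log2 in NC06 cells, against 8.998 and 9.12 in control cells, a difference of -0.24 (SE 0.087, adjusted p 0.317). The other 4 lay close together, at -0.17 for Xrcc2, -0.16 for Rad51b and -0.14 for Rad51c and Rad51d each, and did not reach an unadjusted p under 0.05. Rad51b was the gene among these whose groups overlapped. Rad54l, which encodes a DNA motor of strand exchange, read 8.17 and 8.33 in NC06 cells, against 8.33 and 8.21 in control cells, so its groups overlapped. Its difference was -0.018, and 0.0299 after quantile normalization. The probe set shared by Rad54b and Fsbp was at -0.089 and likewise cannot be assigned.

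Genes that process DNA ends and joint molecules were lower to a varying degree. BLM is the helicase that dissolves joint molecules and EXO1 a nuclease of end resection. Blm read 9.01 and 9.13 log2 in NC06 cells, against 9.27 and 9.38 in control cells, a difference of -0.26 (SE 0.092, adjusted p 0.317). Exo1 was at -0.12 without overlap. The MRN complex finds broken ends and activates ATM. Its subunit gene Nbn read 7.65 and 7.63 in NC06 cells, against 7.94 and 7.82 in control cells, a difference of -0.24 (SE 0.085, adjusted p 0.317). The other subunits, Mre11a at -0.091 and Rad50 at -0.071, were within or near the spread of the arrays, and Rad50 was at 0.033 without NC06 replicate 1.

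Among the kinases the brightest Atr probe set reached an unadjusted p under 0.05 in the main limma fit, while Chek1 and Chek2 did not. The p of the authors' deposited table, which matched an unpaired equal-variance test, gave the reverse. By it Chek1 (0.0112) and Chek2 (0.0367) passed and Atr (0.0579) did not, so this contrast depends on the test. The groups of Atm overlapped. Atr read 7.65 and 7.78 log2 on the NC06 arrays, against 8.01 and 8.13 on the control arrays, a difference of -0.36 (SE 0.096, 0.78-fold, adjusted p 0.255). This is the brightest of 3 probe sets that carry the name. The other 2 had differences of -0.059 and 0.083, and their means over the 4 arrays, 4.12 and 5.05, lay close to or below the median gene. With the mean of the 3 probe sets the difference of Atr was -0.11 (adjusted p 0.539), smaller in size than those of Chek1 and Chek2. Chek1, the target of ATR, read 8.69 and 8.67 in NC06 cells, against 8.89 and 8.85 in control cells. Its difference was -0.19 (SE 0.075, adjusted p 0.349), and the groups did not overlap. Chek2, the target of ATM, read 7.84 and 7.78 in NC06 cells, against 7.99 and 7.95 in control cells. Its difference of -0.16 (SE 0.077, adjusted p 0.413) was likewise without overlap. Atm read 7.99 and 8.26 in NC06 cells, against 8.09 and 8.01 in control cells. The NC06 arrays lay on both sides of the controls, with a difference of 0.077, which was -0.058 without NC06 replicate 2, and a 95% interval from -0.25 to 0.40.

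Of the genes whose proteins feed ATR, Rad9a and Rad17 were lower on both NC06 arrays, and Topbp1 and Clspn overlapped with control. RAD9A is part of the clamp placed at stalled forks and RAD17 the loader of that clamp. Rad9a read 10.14 and 10.17 log2 in NC06 cells, against 10.46 and 10.60 in control cells, a difference of -0.38 (SE 0.09, 0.77-fold, adjusted p 0.239). Rad17 read 8.17 and 8.10, against 8.34 and 8.37 in control cells, a difference of -0.22 (SE 0.078). TOPBP1 activates ATR and claspin carries the signal to CHK1. Topbp1 had a difference of 0.014 (95% interval -0.20 to 0.23), and it was -0.042 after median centring. Clspn was at 0.059 (95% interval -0.20 to 0.32), and at -0.025 without NC06 replicate 2.

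Lower signals were not limited to the members. Of 43 other Fanconi and recombination genes, 35 had a lower mean, 27 lay below without overlap and 2 above, and the median was -0.12 log2. At an unadjusted p under 0.05, 7, or 16.3%, were lower and 0 higher. Over all genes 24.4% lay below and 23.3% above without overlap, and 7.53% were lower at that threshold. Among the brighter genes 35.2% lay below, and 17.3% were lower in the fit that kept only those genes. Mnd1, a partner in strand exchange known from meiosis, was at -0.64 (SE 0.11), Mad2l2, which limits end resection, at -0.43 (SE 0.075), and Ube2t, the ubiquitin-conjugating enzyme of the Fanconi core, at -0.27 (SE 0.074). Of 32 other damage signalling and checkpoint genes 26 were lower, with a median of -0.18, 8 lower and 1 higher at the unadjusted threshold. H2ax, the histone that ATM marks at breaks, was at -0.38 (SE 0.075), the mitotic phosphatase gene Cdc25c at -0.36 and Tipin, of the fork protection complex, at -0.26. None of these lists held a gene with an adjusted p under 0.05.

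Repair pathways that do not use recombination also held more lower than higher means, and their difference from the members was not tested. Of 24 excision and mismatch repair genes 20 were lower, with a median of -0.16, and 6 lower and 1 higher at an unadjusted p under 0.05. The glycosylase gene Neil1 was at -0.43. Ercc5, a nuclease gene that is also a known p53 target, was higher at 0.31. Of 16 genes of end joining and of the PARP and XRCC1 branch 11 were lower, with a median of -0.10 and 3 lower and 1 higher, with Parp1 at -0.31, Xrcc1 at -0.23 and Parp3 at 0.28. Of these 16 genes 8 lay below and 3 above without overlap. The background was 24.4% below and 23.3% above over all genes, and 35.2% and 25.6% among the brighter genes. At an unadjusted p under 0.05 the shares lower were 25% for excision and mismatch repair and 18.8% for end joining. They were 7.53% over all genes, and 17.3% in the fit that kept only the brighter genes.

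**Figure D3:**
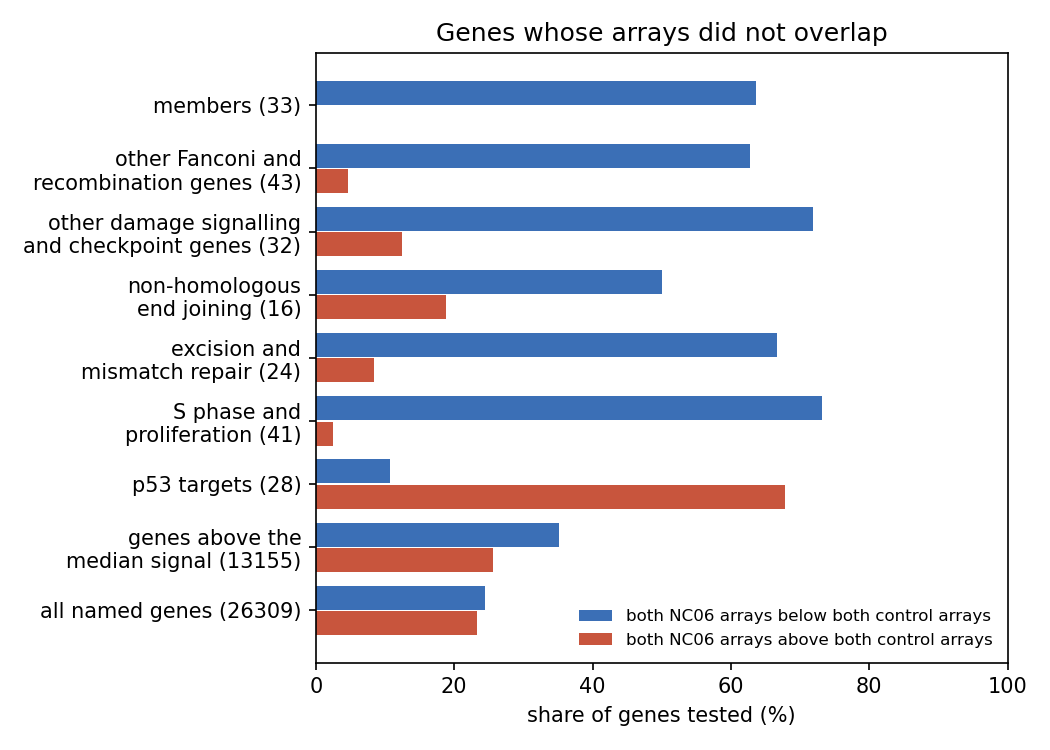
Share of genes (x axis, %) in each list (rows, number tested in brackets) whose NC06 arrays both lay below (blue) or both above (red) the 2 control arrays. The members have 63.6% below and 0 above, S phase genes 73.2% below, and all named genes 24.4% below and 23.3% above.

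S phase and proliferation genes moved beside the members on the same arrays. Of 41 measured genes 36 had a lower mean and 30, or 73.2%, lay below without overlap, with a median difference of -0.13 log2. Their mean was 9.72 and 9.78 on the NC06 arrays, against 9.88 and 9.89 on the control arrays. Mcm10 was at -0.29, Pold1 at -0.38 and Gins1 at -0.28. At an unadjusted p under 0.05, 7 genes, or 17.1%, were lower and 0 higher. Over all genes 24.4% lay below without overlap and 7.53% were lower at that threshold. Among the brighter genes 35.2% lay below, and 17.3% were lower in the fit that kept only those genes. All 41 genes lay above the upper quartile on every array, and the 17.1% is near that brighter share. The part of these genes in the lower signal of the members was not tested. In a bulk culture, fewer cells in S phase and less RNA per cell cannot be told apart.

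Genes that p53 is known to induce, which lie downstream of the kinases, mostly had a higher mean in NC06 cells. Of 28 measured targets 19 lay above and 3 below without overlap, against 23.3% and 24.4% of all genes. Among the brighter genes 25.6% lay above and 35.2% below. At an unadjusted p under 0.05, 13 targets were higher and 1 lower, against 7.79% and 7.53% of all genes. The median difference was 0.22 log2. Trp53inp1 at 1.62, Tnfrsf23 at 1.28 and Ccng1 at 0.98 had the smallest p. Trp53 itself was at 0.041 (SE 0.098) with overlapping groups. In 7 of the 28 targets the mean was lower in NC06 cells. The arrays report transcripts, not kinase activity.

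**Figure D4:**
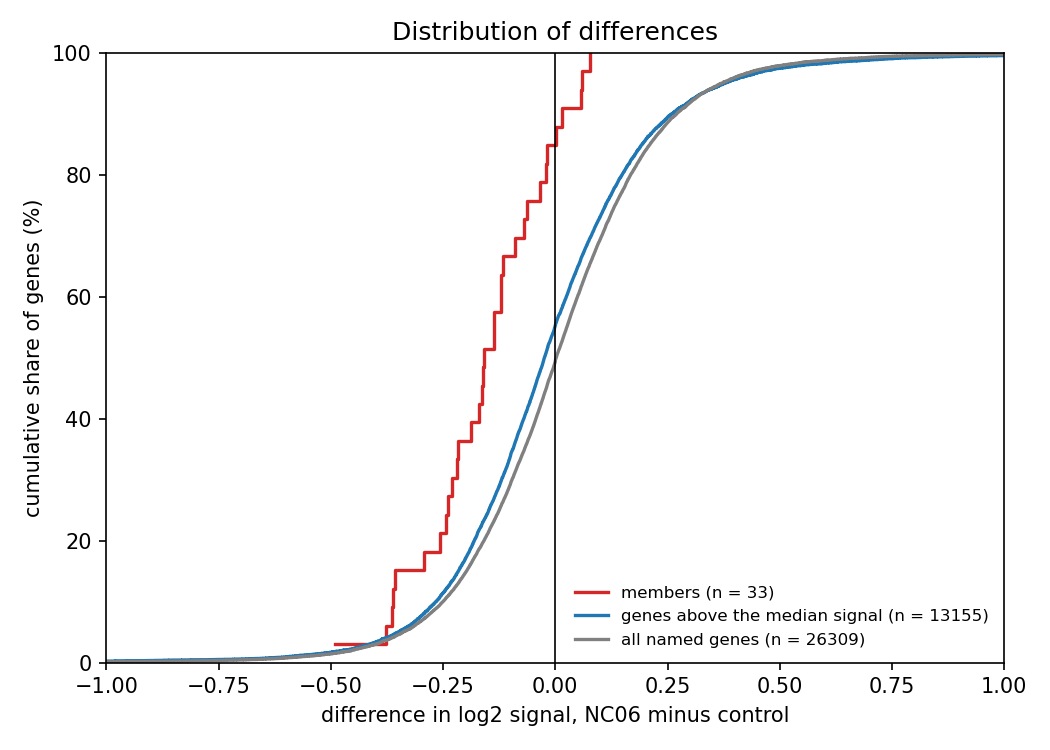
Cumulative share of genes (y axis, %) against the difference in log2 signal (x axis, NC06 minus control) for the 33 members (red), the 13155 genes at or above the median signal (blue) and all 26309 named genes (grey). The red curve passes 0 at 84.8%, against 49.5% for all genes.

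The label of the cells was checked on markers. Of 10 macrophage and myeloid markers 9 lay above the upper quartile of all 4 arrays, and of 16 measured markers of T and NK cells, B cells, fibroblasts and epithelium 0 did. Of the neutrophil and dendritic markers 0 of 16 did. The myeloid markers had a mean of 10.71 log2 on both NC06 arrays, against 10.22 and 10.25 on the control arrays, and the neutrophil markers 5.65 and 5.51, against 4.84 and 4.94. Among the 10 neutrophil markers Mmp8 at 2.89, S100a8 at 1.48, Ly6g at 1.38 and Cxcr2 at 1.01 carried that mean, while Ngp at -0.28, S100a9 at -0.22 and Csf3r at -0.09 had lower means, and the median was 0.27. Their part in the differences of the members was not tested. The median signal over all probe sets was 4.75 and 4.74 on the NC06 arrays, against 4.68 and 4.67 on the control arrays, and the arrays correlated at 0.991 or more within and 0.989 between groups.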

How the data were processed

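Each of 4 J774M samples was hybridised to a whole-transcript Affymetrix array. The sample titles gave groups and replicate numbers. The log2 signals per probe set were used as the authors deposited them. Partek is named in the submitters' processing notes, while the sources used here do not give its version, background correction or normalization. The ratio of NC06 over control in the authors' deposited table equalled the differences of the log2 values within 8.8e-05, which settles the direction, and its p-value matched an unpaired equal-variance test within 0.0037.

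Of 41345 probe sets, 23521 had a single gene in the platform annotation and 1820 several. A further 4395 took the symbol of the deposited table where a RefSeq table of GRCm38.p6, used for names, held it or its synonym, and 11609 stayed unnamed. Several-gene and unnamed probe sets were not tested. The probe set with the highest mean over the arrays stood for a gene. Differences were fitted with limma 3.58.1 (lmFit, eBayes, two-sided) in R 4.3.3 over 26309 genes with Benjamini-Hochberg adjustment and no filter, and the fit was tested on simulated data. It had 2 residual and 2.36 prior degrees of freedom. The number of arrays limits the precision. Tables were made in Python 3.11.15 with pandas 2.3.3.

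The members and lists were chosen with earlier results of these data known, and medians and counts of lists are descriptions. Values of every array are given for the kinases, for members at an unadjusted p under 0.05, for the member with the smallest p of each role, and for Fancd2, Brca1 and Brca2, chosen after their values were seen. From each list of other genes the 3 with the smallest p are named, except 1 that is not reported here.

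The alternatives tried were median centring, quantile normalization, removal of genes below the lower quartile or the median of signal, a trended robust prior, averaging the probe sets of a gene or taking its dimmest, a block for the replicate number, refits without each array, the deposited p-values and an adjusted p under 0.10. Including the several-gene probe sets was chosen after seeing the data.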

Additional observations from a re-analysis of the deposited data

How the results depend on the processing

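The 12 members lower at an unadjusted p under 0.05 became 6 after quantile normalization (6.85% of all genes lower), 7 with the replicate number as a block (6.27%) and 2 to 6 without 1 array (4.39% to 5.4%), against 7.53% of all genes in the full fit. They were 13 after median centring (11.2%) and without genes below the lower quartile of signal (10.4%). There were 14 without genes below the median (17.3%) and with the trend and robust prior (11%). With the mean and the dimmest probe set there were 11 (7.47%) and 10 (7.32%), and with shared probe sets included 12 (7.61%). The deposited p-values gave 9, against 6.82% of the probe sets lower. Same-numbered arrays deviated together with a correlation of 0.032 over 26309 genes, and the main fit did not pair them. The authors' deposited table holds a ratio for each same-numbered pair, while its p-value matched an unpaired test. Whether same-numbered samples were handled together cannot be told from these values. No member was higher at that threshold under any refit. The median over the members was -0.11 after quantile normalization, -0.21 after median centring and -0.19 to -0.12 without 1 array. Members past an adjusted p of 0.05 were 2 without the genes below the median signal and 3 with the trend and robust prior, and 0 without any 1 array. Over all genes these fits called 861 and 1460. The count was 13 after quantile normalization, 26 after median centring, 135 without those below the lower quartile, 2 each with the mean and the dimmest probe set, and 0 without any 1 array, and 117 at an adjusted p under 0.10. After quantile normalization Fancg was at 0.034 and Rad54l at 0.0299, and after median centring Brca1 was at -0.055 and Topbp1 at -0.042. Without 1 array the differences ran from -0.038 to 0.041 for Brca1, -0.097 to 0.061 for Rad54l, -0.15 to 0.023 for Brip1, -0.021 to 0.049 for Topbp1, -0.14 to 0.069 for Fancd2, -0.27 to 0.028 for Brca2, -0.17 to 0.033 for Rad50, -0.034 to 0.15 for Fancm, -0.058 to 0.21 for Atm and -0.025 to 0.14 for Clspn. The fit that called 861 genes tested fewer genes than the main fit, and the fit that called 1460 used the trend and robust prior. The cause of these and of the other shifts was not tested. Of the probe sets that stood for a member, that of Fancc was the dimmest, at a mean of 5.20 log2 over the 4 arrays. Its level over background was not measured here.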
